A study of Mus musculus with 192 samples.

Results

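The miRs described here are the mature products, from both the 5p and the 3p arm, of 44 hairpins in the imprinted Dlk1-Dio3 region of mouse chromosome 12. The files listed 88 such miRs of 1978 in all, and 86 of 740 had a mean count above 10 over 32 small RNA libraries and were analysed. The 2 left out were miR-668-5p (mean count 6.41) and miR-758-5p (6.34), while the 2 nearest the limit from above were miR-381-5p (15.8) and miR-495-5p (15.1). Levels are given below in CPM, the counts of a library scaled to a fixed total, after correction by the trimmed mean of M values (TMM), which sets the bulk of miRs level between libraries.

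Wild-type E14 mouse embryonic stem cells (mESCs), a line of 129/Ola origin, were held in 2i and LIF, which keep them pluripotent, and then moved to N2B27 medium with retinoic acid (RA, the all-trans form at 0.25 µM). Small RNA was sequenced at 8 time points, at 0, 6, 12 and 24 h of RA, then at 36 and 48 h and last at 72 and 96 h, with 4 libraries at each from separate differentiation runs: 5, 6, 7 and run 3, whose place run 4 took at 6 and 12 h. Cytoplasmic and nuclear RNA of runs 5, 6 and 7 and total RNA of other replicates gave the levels of the genes in the region, and mESCs without RA were transfected with a mimic or an inhibitor of 1 member, miR-433-3p, or with scrambled controls. All groups share the one wild-type line, so the spread between libraries is that between runs of 1 line and not between animals.

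A miR is cut from a hairpin in a longer transcript, first in the nucleus and then in the cytoplasm, and guides Argonaute proteins to mRNAs that pair with its seed, bases 2 to 8. In the Dlk1-Dio3 region the maternal chromosome expresses the long non-coding RNAs Meg3, Rian and Mirg, from whose transcription unit these hairpins come, and the paternal chromosome expresses the coding genes Dlk1, Rtl1 and Dio3. The region is known in mouse stem cells because its maternal RNAs can be lost in culture, and several of its miRs are known from brain.

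RefSeq on GRCm38.p6 held the mature sequence of 82 of the 86 miRs, all on the plus strand of chromosome 12. These fell on 79 different seeds, of which 3 were each shared by a pair. The most counted miR, the pair of arms of miR-433 and both miRs that fell past the test at 96 h are shown first, 5′ to 3′, with the seed in capitals.
miR-127-3p: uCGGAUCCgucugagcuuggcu
miR-433-5p: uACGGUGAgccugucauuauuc
miR-433-3p: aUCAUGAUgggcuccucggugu
miR-673-5p: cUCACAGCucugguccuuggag
miR-668-3p: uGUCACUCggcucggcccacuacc
miR-673-5p lies at chr12:109572004-109572025, miR-433-5p at chr12:109591729-109591750, miR-433-3p at chr12:109591781-109591802 and miR-127-3p at chr12:109592888-109592909. These 4 fall within the span of Rtl1 in RefSeq (chr12:109564900-109604418), and the hairpins of miR-433 and miR-127 belong to a group transcribed from the strand opposite Rtl1. miR-668-3p, at chr12:109734774-109734797, lies before the start of Mirg (chr12:109734981-109749458).

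Reads of near-identical members can be hard to assign. The pairs that share a seed or differ at no more than 3 bases are shown for that reason, again with seeds in capitals.
miR-379-3p: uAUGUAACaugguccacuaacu
miR-411-3p: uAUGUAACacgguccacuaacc
miR-376b-5p: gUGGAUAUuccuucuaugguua
miR-376c-5p: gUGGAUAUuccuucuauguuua
miR-410-5p: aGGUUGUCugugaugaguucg
miR-494-5p: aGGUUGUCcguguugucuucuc
miR-300-3p: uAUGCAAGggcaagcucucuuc
miR-381-3p: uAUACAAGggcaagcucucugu
miR-376a-3p: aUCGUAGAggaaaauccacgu
miR-376b-3p: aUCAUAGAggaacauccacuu
The first 3 pairs are those that share a seed. miR-376b-5p and miR-376c-5p differ at 1 base and had a Spearman correlation of 0.79 across the 32 libraries, which share depth and run. miR-379-3p and miR-411-3p differ at 2 bases (correlation -0.05), and miR-300-3p and miR-381-3p differ at 3 bases, 1 of them in the seed (0.30), as do miR-376a-3p and miR-376b-3p (0.53). These values are descriptions, and the levels of such pairs are less certain than those of the other members.

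The small RNA libraries held 1046533 to 16869744 miR counts, with a median of 5652543. The 7 libraries of run 7 after 0 h stood apart from the rest. They detected 562 to 983 miRs where the 24 libraries of the other runs detected 955 to 1266, and 2 to 25 of the 86 members were at 0 in them against 0 or 1. Their Spearman correlation with libraries of the same time point was 0.56 to 0.92 over all miRs (21 pairs), against 0.89 to 0.99 among the other runs (24 pairs). The TMM factors of these 7 libraries were 0.29 to 0.52, against 0.70 to 2.30 in the other runs. CPM is divided by this factor. The 0 h library of run 7 did not share these traits, with 1267 miRs detected, no member at 0 and a factor of 1.14. The main results at 96 h are therefore given with and without run 7.

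Of the 15 most counted members, the 2 that stood highest and the 2 that stood lowest in run 7 against the other runs are shown with their seeds in capitals.
miR-409-3p: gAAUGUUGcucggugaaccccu
miR-370-3p: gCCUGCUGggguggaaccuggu
miR-494-3p: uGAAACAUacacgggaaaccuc
miR-369-3p: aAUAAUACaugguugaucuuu
After 0 h, miR-409-3p (chr12:109743204-109743225) was on average 3.98 log2 higher in run 7 than in the other runs, and miR-370-3p (chr12:109618305-109618326, in Rian) 2.69 higher. Lower in run 7 were miR-369-3p (chr12:109743466-109743486), with a log2 difference of -6.46, and miR-494-3p (chr12:109715367-109715388), with -5.26. Among the less counted members, miR-154-3p (-5.40), miR-665-3p (-4.46) and miR-410-3p (-3.90) were also far lower, and miR-485-5p (3.80), miR-770-3p (3.16) and miR-673-3p (3.04) far higher. In 34 of the 82 members with a sequence the difference exceeded 4-fold, 25 lower and 9 higher in run 7, which is 41.5% against 40.8% of the other miRs with a sequence.

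**Figure D1:**
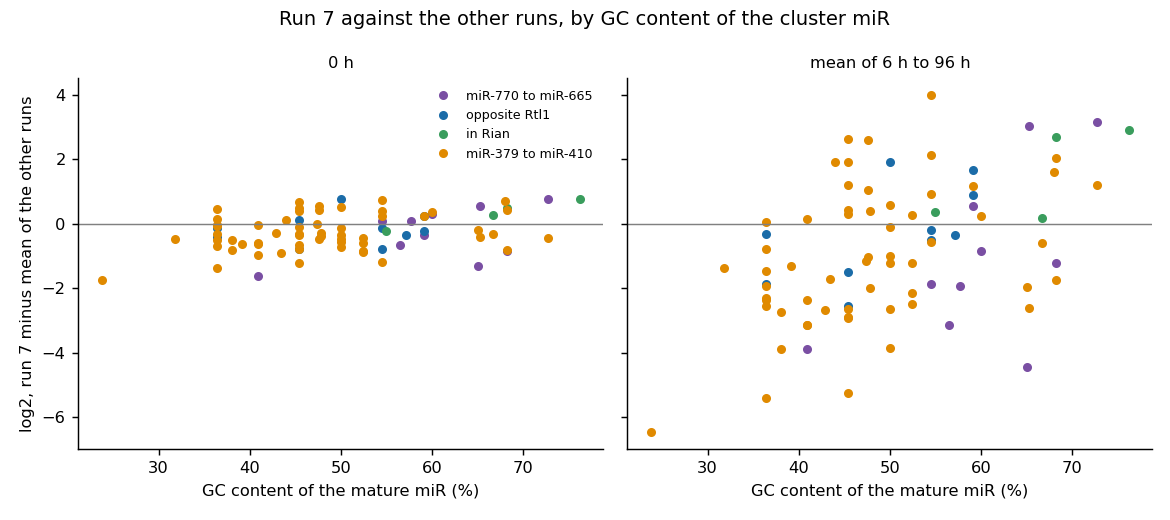
Difference in log2 CPM between run 7 and the mean of the other runs (y axis) against GC content of the mature miR in percent (x axis), for 82 members at 0 h (left) and on average from 6 to 96 h (right). Each point is 1 miR, coloured by its place in the region. At 0 h all points lie within -1.75 and 0.77, and from 6 h they reach from -6.46 to 3.98, with the A- and U-rich miRs mostly below 0.

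The difference moved with base composition. Of 15 members with a GC content of at most 40%, 14 were lower in run 7 after 0 h, with a median difference of -1.92 log2. Above 50% GC, 17 of 35 were lower and 18 higher, with a median of 0.17. Across the 82 members Pearson's r between GC content and the difference was 0.47 and Spearman's rho 0.44, against 0.34 and 0.29 at 0 h. Among 527 other miRs r was 0.24. miRs of one library are not independent replicates, so these are descriptions, and the part of base composition in the results below was not tested. In run 6 at 48 h, miR-409-3p and miR-369-3p stood apart from runs 3 and 5 in the same direction as in run 7. miR-409-3p reached 15698 CPM against 3092 and 3171 in runs 3 and 5, and miR-369-3p was at 158 CPM against 2838 and 2034. Both were picked by their run 7 values, and run 6 was not compared with GC content.

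A few members made up most of the cluster's counts. miR-127-3p, which pairs fully with the Rtl1 transcript of the other strand, was the seventh most counted of all miRs and gave 17.5% of the cluster's counts pooled over the 32 libraries, or 17.4% without run 7. The 5 most counted members gave 47.1% and the 15 most counted 77.2%, or 42.3% and 73.96% without run 7, the same 15 members in both. Deeper libraries weigh more in these pooled shares. Of the 86, 49 had a mean count above 1000 and 11 a mean count below 100, and 11 were among the 50 most counted miRs of the series.

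The first question was whether the members changed between mESCs and cells after 96 h of RA. miR-127-3p was at 17603, 13568, 21327 and 20355 CPM in runs 3, 5, 6 and 7 at 0 h and at 10396, 14016, 19298 and 65249 CPM at 96 h. The 96 h value of run 7 stood above the other 7 libraries, which overlapped between the time points. These CPM are divided by the TMM factor, which at 96 h was 2.12, 2.30, 2.18 and 0.517 in the same order of runs. As a share of all miR counts, without that factor, the whole cluster stood at 16.3, 19.6, 22.4 and 17.5%. The part of scaling in the run 7 values here and below was not tested. The fitted log2 change of miR-127-3p was 0.58 ± 0.65 (SE, n = 4 libraries at each time point; adjusted p = 0.599), and -0.15 without run 7.

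miR-409-3p was at 3743, 3753, 7193 and 5490 CPM at 0 h and at 2192, 2662, 4637 and 70543 CPM at 96 h, in the same order of runs. It was lower at 96 h in 3 runs and far higher in run 7, so that the log2 change of 1.99 ± 1.44 (adjusted p = 0.381) became -0.51 without run 7. miR-541-5p was at 12900, 6972, 7427 and 9378 CPM and then at 6126, 7126, 7109 and 29364 CPM, and miR-379-5p at 7951, 5659, 6307 and 9655 CPM and then at 4781, 5316, 7105 and 46697 CPM. For both, run 7 at 96 h lay above all other libraries, and the log2 changes of 0.44 ± 0.73 and 1.11 ± 0.95 became -0.32 and -0.10 without that run.

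The same held for miRs that were level or somewhat higher in the other runs. miR-370-3p was at 4245, 1996, 2358 and 3781 CPM at 0 h and at 3457, 4022, 5156 and 30615 CPM at 96 h. miR-381-3p was at 3872, 2368, 3480 and 4394 CPM and then at 3128, 3010, 3954 and 29931 CPM. In both the groups overlapped, with log2 changes of 1.80 ± 1.02 (adjusted p = 0.224) and 1.50 ± 0.98 (adjusted p = 0.317) that were 0.66 and 0.16 without run 7. miR-434-5p was at 3372, 2416, 2913 and 4915 CPM and then at 2255, 2935, 4740 and 15432 CPM (log2 change 0.90 ± 0.77). miR-134-5p, known from the growth of neuronal dendrites, was at 2426, 1948, 2656 and 2757 CPM and then at 1756, 2065, 2757 and 7420 CPM (0.52 ± 0.52). Run 7 was again the highest library at 96 h for both, neither passed the test, and the changes were 0.30 and 0.01 without run 7.

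miR-543-3p was at 4983, 4062, 7989 and 5048 CPM at 0 h and at 1733, 1940, 4813 and 9072 CPM at 96 h. It was lower in runs 3, 5 and 6 and higher in run 7 (log2 change -0.33 ± 0.79), and passed the test only with run 7 left out and the run as a block (-1.04, adjusted p = 0.0105). miR-323-3p was at 5107, 2411, 3624 and 2356 CPM and then at 1785, 1774, 2542 and 3163 CPM (-0.54 ± 0.35). It was likewise lower in runs 3, 5 and 6, and passed the test in that same setting only (-0.74, adjusted p = 0.0232).

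miR-300-3p was at 3740, 4689, 5699 and 6701 CPM at 0 h and at 3317, 3691, 4816 and 4004 CPM at 96 h. Every run was lower at 96 h by less than 2-fold, the groups overlapped, and the log2 change of -0.40 ± 0.37 (-0.15 without run 7) did not pass the test. miR-411-5p was at 3286, 3867, 3590 and 4778 CPM and then at 3683, 3599, 4205 and 1620 CPM (-0.24 ± 0.47, or 0.20 without run 7). miR-434-3p was at 3374, 2547, 2639 and 1635 CPM and then at 3009, 3110, 2833 and 711 CPM (-0.08 ± 0.75, or 0.16 without run 7). For miR-411-5p and miR-434-3p run 7 was the lowest library at 96 h, the opposite of miR-127-3p, and for miR-300-3p it lay among the others.

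The gap was wider for miR-369-3p and miR-494-3p. miR-369-3p was at 4723, 2892, 2421 and 954 CPM at 0 h and at 3269, 2596, 1711 and 19.1 CPM at 96 h. miR-494-3p was at 3301, 1768, 1584 and 1222 CPM and then at 2437, 2650, 2032 and 98.6 CPM. Runs 3, 5 and 6 overlapped between the time points for both. Their log2 changes were -0.53 ± 1.49 and -0.13 ± 1.27 (adjusted p = 0.849 and 0.963). With the run as a block they were -2.60 and -1.78 (adjusted p = 0.0218 and 0.0478), and with run 7 left out as well -0.30 and 0.29 (adjusted p = 0.723 and 0.592), so that the blocked calls were not made without that run.

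**Figure D2:**
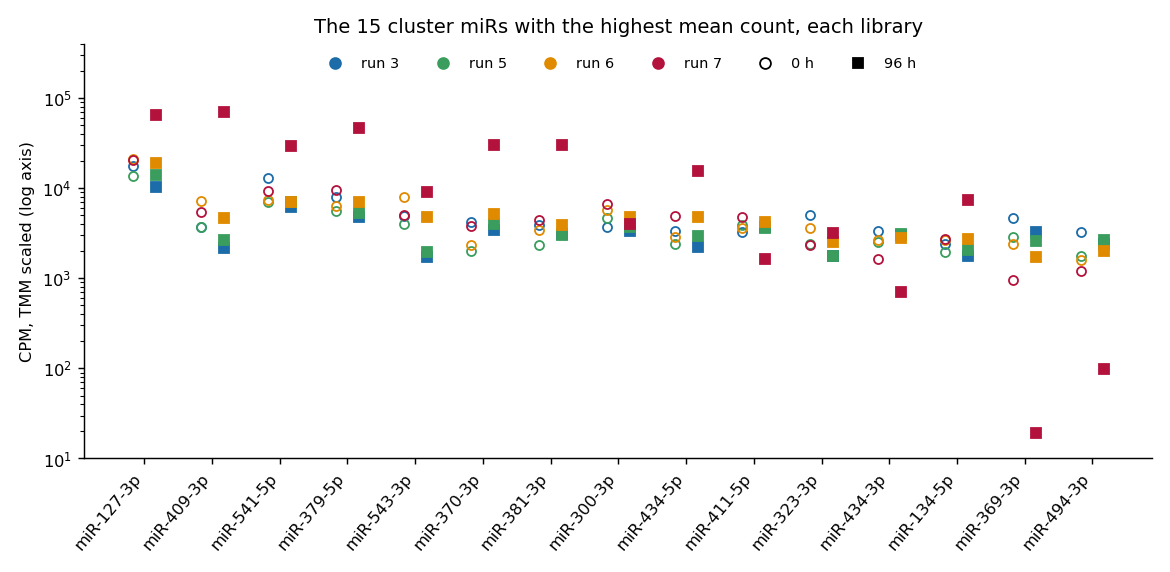
TMM-scaled CPM on a log axis of the 15 members with the highest mean count (x axis, most counted first) in each 0 h library (open circles) and 96 h library (squares), coloured by run. The square of run 7 reaches 70543 CPM for miR-409-3p and 19.1 CPM for miR-369-3p, outside the other libraries, and lies among them for miR-300-3p (4004 CPM) and miR-323-3p (3163 CPM).

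Of the 86 members, 2 fell and none rose at 96 h by edgeR's quasi-likelihood test at an adjusted p below 0.05, against 25.3% of all 740 miRs called (187 miRs, 12.8% higher and 12.4% lower). An unadjusted p below 0.05 was reached by 6 members. The median log2 change was -0.10 for the members, 38 above and 48 below 0, and 0.17 for all miRs tested (0.05 and 0.28 by DESeq2, which called 1 member higher and 2 lower, against 31.1% of all miRs). Without run 7, 1 member rose and 5 fell, against 37.7% of all miRs. miR-665-5p was higher (1.28), and miR-666-5p (-1.45), miR-433-3p (-0.93) and miR-412-5p (-0.80) were lower. So were the 2 called with all 4 runs included. With the differentiation run as a block, 1 rose and 18 fell, against 44.1%. With both, 3 rose and 10 fell, against 48.3%, and 7 of these 13 were among the 19 called with the block alone. Scaling by total counts in place of TMM moved the median of all miRs by 0.56 log2 to 0.74 and that of the members to 0.56. Different members were then called, miR-341-5p (1.75) and miR-370-3p (1.55), both higher. The members' median stood 0.28 below that of all miRs under TMM and 0.18 below it under total counts.

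**Figure D3:**
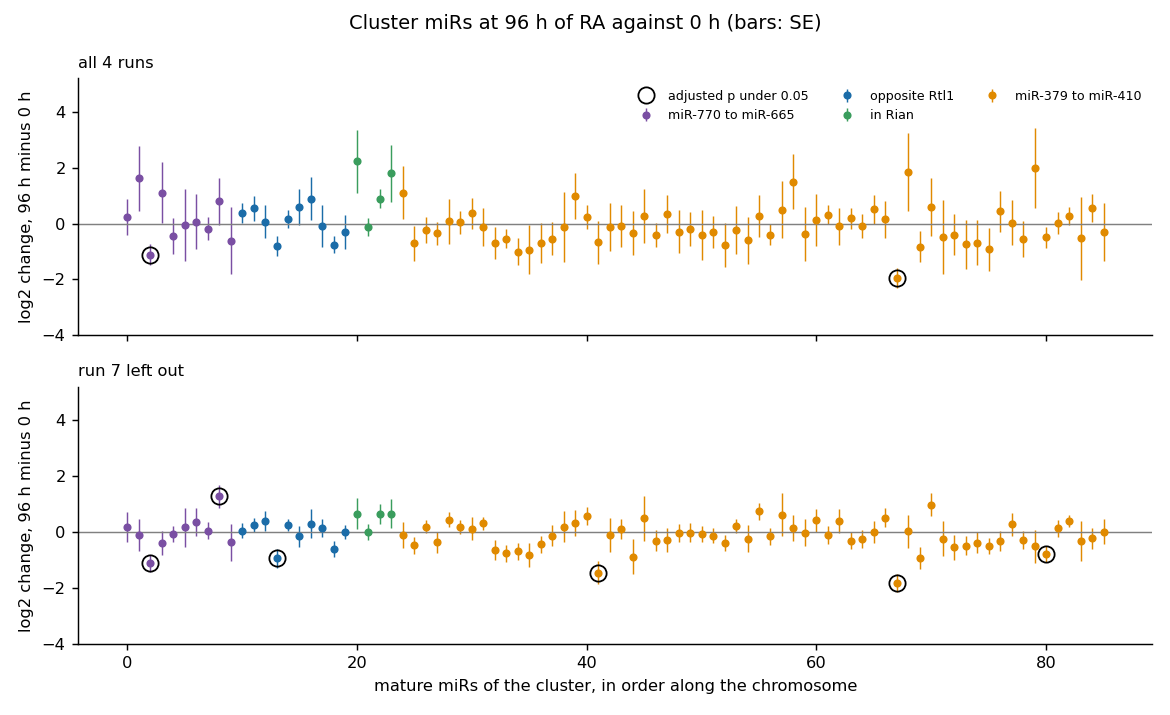
log2 change from 0 to 96 h (y axis) with its SE as bars for the 86 members in order along the chromosome (x axis), with all 4 runs (top) and with run 7 left out (bottom). Colours give the place in the region, and rings mark an adjusted p below 0.05, of which there are 2 in the top panel and 6 in the bottom panel.

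miR-668-3p, the first of the 2 that fell, was at 54.4, 55.5, 54.8 and 44.0 CPM at 0 h and at 15.6, 12.9, 14.6 and 10.95 CPM at 96 h. Every 96 h library lay below every 0 h library, in run 7 as in the others. The log2 change was -1.94 ± 0.37 (SE, n = 4; adjusted p = 0.000168), -1.83 without run 7 and -1.95 with the run as a block. Under total counts it was -1.30 and not called (adjusted p = 0.245).

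miR-673-5p was at 389, 205, 213 and 203 CPM at 0 h and at 109, 126, 113 and 121 CPM at 96 h. The 96 h libraries lay close together and below all 0 h libraries. The log2 change was -1.11 ± 0.39 (adjusted p = 0.0347). This call was lost with no filter on low counts (adjusted p = 0.0889), with counts summed over precursors (0.0704), under total counts (0.504) and when run 3 (0.352), run 5 (0.160) or run 6 (0.0983) was left out, and was made without run 7 (-1.12, adjusted p = 0.00575) and with the block (0.00617).

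miR-433 is the hairpin whose 3p arm was transfected in mESCs. miR-433-3p was at 3363, 1250, 1821 and 1142 CPM at 0 h and at 949, 1037, 1148 and 1183 CPM at 96 h. The 96 h values were alike, and the 0 h values spread almost 3-fold and overlapped them in run 7. The log2 change of -0.81 ± 0.36 did not pass the test (adjusted p = 0.113), and did so with the block (-0.75, adjusted p = 0.0443) and without run 7 (-0.93, adjusted p = 0.0394). miR-433-5p was at 16.1, 21.1, 21.4 and 21.2 CPM and then at 22.5, 24.7, 24.5 and 11.4 CPM, with a log2 change of 0.06 ± 0.59 (adjusted p = 0.963, or 0.39 and 0.408 without run 7). The 3p arm held 94.9 to 100% of the hairpin's counts over the 32 libraries, with a median of 98.9%.

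At most of the single time points few members or none were called. At 6, 12, 24 and 36 h edgeR called 0 of the 86, with 5, 1, 2 and 1 below an unadjusted p of 0.05. All miRs gave 0, 0, 0 and 5.95% called at these times. DESeq2 called 0, 0, 0 and 1 member, where it called 0.541, 0.811, 4.73 and 10.3% of all miRs. At 48 h miR-668-3p alone passed and had fallen (log2 change -1.32 ± 0.36, adjusted p = 0.0119), against 15.8% of all miRs. At 72 h, 1 member rose and 5 fell, against 24.1%. With the run as a block, 11, 3, 22 and 26 members were called at 24, 36, 48 and 72 h (background 21.9%, 22.3%, 40% and 43.2%), and 0, 4, 12 and 13 with run 7 left out as well (11.4%, 24.7%, 33% and 38.2%).

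Members named here and in the rest of the text besides the 15 most counted, the 2 that fell and miR-433 were chosen after their values were seen. The member that rose at 72 h was miR-370-5p, in Rian (1.04 ± 0.34, adjusted p = 0.0288). miR-668-3p fell by 2.23 ± 0.38 on the log2 scale (adjusted p = 6.21e-05). miR-412-5p, miR-673-5p, miR-433-3p and miR-136-5p fell by 1.07, 1.06, 1.00 and 0.81 (adjusted p = 0.0368, 0.0475, 0.0475 and 0.0475).

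Over all time points together, 6 members passed edgeR's test, against 28.1% of all miRs: miR-668-3p (adjusted p = 2.54e-07), miR-433-3p (0.00141), miR-673-5p (0.00181), miR-412-5p (0.00620), miR-323-5p (0.0289) and miR-485-3p (0.0331). The 3 not shown before are the following.
miR-412-5p: uGGUCGACcagcuggaaaguaau
miR-323-5p: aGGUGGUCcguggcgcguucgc
miR-485-3p: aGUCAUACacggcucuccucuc
None of the 6 shared a seed with another member. Without run 7, 15 members passed (background 49.3%), with the block 16 (55.1%) and with both 23 (60.5%), and each of these sets held all 6.

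In most runs these miRs were highest between 6 and 24 h and declined after that. miR-668-3p was at 154.4, 100, 59.6 and 56.5 CPM at 6 h in run 4 and runs 5, 6 and 7, and at 18.8, 27.6, 16.9 and 20.0 CPM at 48 h in runs 3, 5, 6 and 7. The decline from 6 to 48 h was seen within runs 5, 6 and 7, while run 4 has no library after 12 h. The early height differed between runs. miR-433-3p was at 5987, 2400, 2141 and 2428 CPM at 6 h and at 1140, 1118, 1006 and 1407 CPM at 48 h, with no overlap between these times. miR-412-5p was at 475, 254, 272 and 245 CPM at 0 h, at 610, 353, 277 and 542 CPM at 6 h and at 149, 159, 139 and 271 CPM at 36 h. Within runs 5, 6 and 7 it was lower at 36 h than at 6 h, and the 36 h value of run 3 lay below the 6 h value of run 4.

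miR-323-5p was at 27.7, 18.1, 22.96 and 16.4 CPM at 0 h, at 82.0, 36.2, 32.3 and 92.0 CPM at 6 h and at 10.7, 13.5, 16.3 and 12.2 CPM at 96 h. All 6 h libraries lay above all 0 h libraries, and all 96 h libraries below them. miR-485-3p was at 1225, 574, 1151 and 407 CPM at 0 h, at 2638, 1316, 1804 and 2491 CPM at 6 h and at 315, 476, 659 and 432.9 CPM at 96 h. Its 6 h libraries also lay above all 0 h libraries, and run 7 peaked at 24 h, at 5139 CPM. The 6 h against 0 h change of neither passed the adjusted test.

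**Figure D4:**
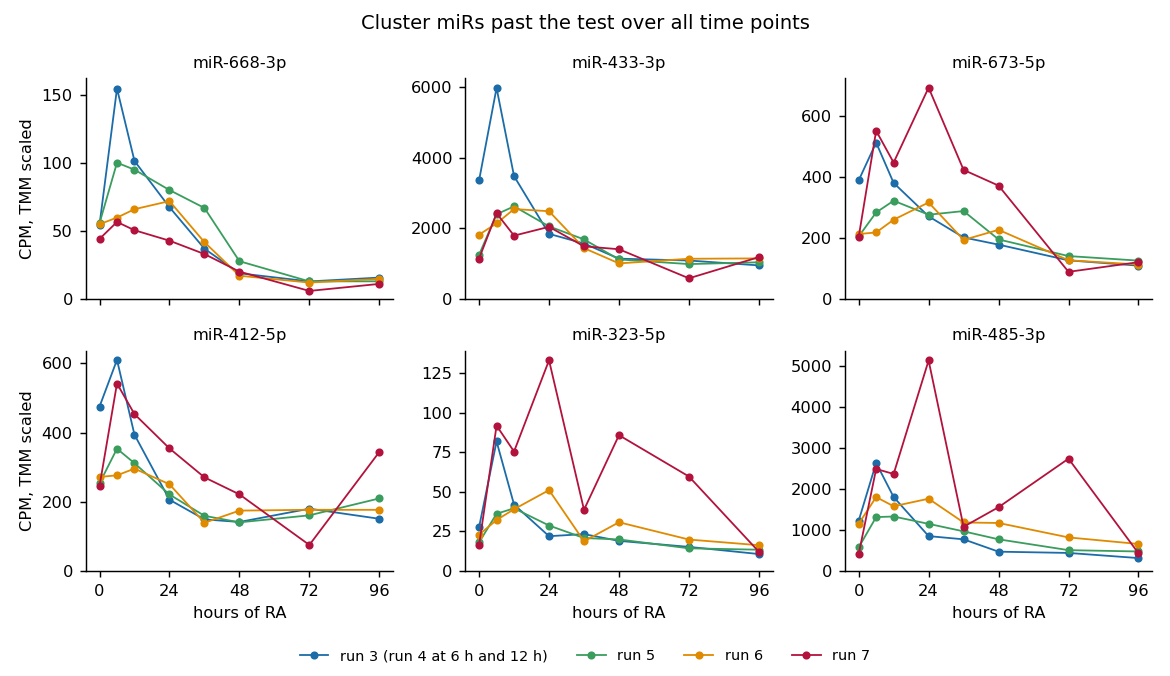
TMM-scaled CPM (y axis) against hours of RA (x axis) for the 6 members that passed the test over all time points, 1 line per run (run 4 stands in for run 3 at 6 and 12 h). For miR-668-3p the 4 lines end between 10.95 and 15.6 CPM at 96 h, from 44.0 to 55.5 CPM at 0 h.

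In the 3 sets without run 7, 30 of the 86 members had their highest mean at 6 h (34.9%, against 11.2% of all miRs). The lowest mean was at 36 h for 29 members and for 64 of all 740 miRs. In the set of run 3 the libraries at 6 and 12 h are of run 4. Its differences between these times and the others are therefore also differences between runs. With run 7 included, 25 had their highest mean at 6 h (29.1%, against 9.73%) and 24 at 0 h, and the lowest was at 72 h for 37 members (203 of all miRs) and at 36 h for 10, so that the time of the lowest level depended on run 7. At 6 h the members' median log2 change was 0.21, with 55 above and 31 below 0, and 0.18 without run 7, with 67 above and 19 below 0. The median of all miRs was -0.01. Under total counts the members' median was -0.02 and all miRs' -0.29, and with the run as a block -0.03 and -0.25. The sign thus depended on the setting, while the members stood above all miRs in each of these settings. By set, the members' median log2 difference between 0 and 6 h was 0.38 in the set of runs 3 and 4. It was 0.14, 0.10 and -0.33 in runs 5, 6 and 7. The medians of all miRs were 0.01, -0.13, -0.03 and -0.33 in the same order.

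The members varied less over time than most miRs. Without run 7, the range of a member's mean over the 8 time points had a median of 0.86 log2, against 1.42 for the 654 other miRs, and 29 members exceeded 2-fold (33.7%, against 70.1% of all miRs). With run 7 these medians were 1.14 and 1.69 log2, and 54 members exceeded 2-fold (62.8%, against 81.2%). All 14 miRs of the cluster from miR-290 to miR-295, the main miRs of mESCs, exceeded 2-fold, with a median of 3.24 log2, as did all 9 of the cluster of miR-302 and miR-367 (2.54). The other miRs of the Dlk1-Dio3 region gave 0.78, with 1 of 10 over 2-fold. From 0 to 96 h, 22, 6 and 3 members changed by more than 2-fold in runs 3, 5 and 6, or 25.6%, 6.98% and 3.49%, against 45.4%, 41.4% and 41.6% of all miRs. In run 7, 57 did, or 66.3%, against 70.1%.

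The 0 h and 96 h libraries did not overlap for 7 of the 86 members, which is 8.14%, against 30.5% of all miRs. Without run 7 it was 21, or 24.4%, against 53.4%. Of the 7, miR-758-3p, miR-136-5p, miR-673-5p, miR-668-3p, miR-377-3p and miR-323-5p were lower at 96 h and miR-370-5p was higher. miR-370-5p was at 57.7, 40.4, 42.6 and 39.4 CPM at 0 h and at 64.2, 75.4, 65.2 and 131 CPM at 96 h. Its change was positive in 4 of 4 runs, at 0.90 ± 0.34 (adjusted p = 0.0536, or 0.00937 with the block).

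By place, the 62 members from miR-379 to miR-410, before and within Mirg, had a median log2 change of -0.22 at 96 h, with 24 above and 38 below 0. The 10 from miR-770 to miR-665 had a median of 0.01, the 10 opposite Rtl1 (miR-431, miR-433, miR-127, miR-434 and miR-136) 0.11 and the 4 in Rian (miR-341 and miR-370) 1.35. Without run 7 the medians were, in the same order, -0.12, -0.0018, 0.11 and 0.65, with 4 of 4 above 0 in Rian. By arm, the 44 3p members had a median of -0.23 and the 42 5p members 0.18, and -0.13 and 0.02 without run 7. These are descriptions, and differences between the places or arms were not tested.

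The ratio of the 2 arms of a hairpin was compared in the 42 hairpins with both arms above the limit. The 3p arm held more than 50% of the hairpin's counts in all 32 libraries for 19 hairpins and the 5p arm for 11, and in all 24 libraries of the other runs for 24 and 13. By an exact two-sided permutation test of the log2 ratio of 3p to 5p at 96 h against 0 h, no hairpin passed the adjusted threshold (smallest adjusted p = 0.60). The smallest p that 4 against 4 libraries allow is 0.0286, which only miR-154 reached, and 24 hairpins would have to reach it for any to pass. In miR-154 the log2 ratio was 2.87, 1.40, 1.10 and 0.75 at 0 h and 0.52, 0.58, 0.59 and -1.42 at 96 h, in runs 3, 5, 6 and 7. Every 96 h value lay below every 0 h value, and the mean difference was -1.46, or -1.23 without run 7.

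As a share of all miR counts, the cluster made up 16.6, 10.3, 11.4 and 12.4% at 0 h in runs 3, 5, 6 and 7. The lowest share was at 36 h (9.75% ± 2.14, SD, n = 4), and at 96 h it was 16.3, 19.6, 22.4 and 17.5% (18.9% ± 2.69). Without run 7 the shares at 0, 36 and 96 h were 12.7% ± 3.38, 10.1% ± 2.49 and 19.4% ± 3.06 (SD, n = 3). Shares depend on the other miRs counted. The cluster from miR-290 to miR-295 held 45.3% of counts in mESCs, stood at 53.2% by 36 h and ended at 9.03% (45.7, 50.97 and 10.3% without run 7). Of the counts outside that cluster, the members held 23.01% ± 3.58 at 0 h, 27.3% at 6 h and 20.9% ± 3.67 at 96 h, or 23.3, 26.98 and 21.7% without run 7.

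The host RNAs of the hairpins were measured in the cytoplasmic and nuclear RNA of runs 5, 6 and 7, as length-corrected abundance in TPM. Cytoplasmic Meg3 (chr12:109540996-109571729) was at 323.15, 290 and 283 TPM at 0 h, at 189, 212 and 168 TPM at 24 h and at 593, 555 and 525 TPM at 96 h. It was lower in all runs at 24 h than at 0 h and higher in all at 96 h. It rose by 0.62 ± 0.21 log2 from 0 to 96 h (SE, n = 3; adjusted p = 0.00887), a call that was lost without run 6 (0.59).

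Cytoplasmic Rian (chr12:109603945-109661716) was at 393, 367.01 and 346 TPM at 0 h, at 254, 250 and 250 TPM at 24 h and at 892, 737 and 790 TPM at 96 h. It followed the course of Meg3 and rose by 0.79 ± 0.19 log2 (adjusted p = 2.95e-04). Cytoplasmic Mirg was at 36.5, 43.2 and 54.3 TPM at 0 h, at 76.8, 108 and 84.8 TPM at 6 h and at 89.4, 87.1 and 78.3 TPM at 96 h. It was higher at 6 h than at 0 h in every run, and rose by 0.48 ± 0.19 log2 from 0 to 96 h (adjusted p = 0.0302). This call was lost when any 1 run was left out (0.45 to 0.51). Mean TPM of cytoplasmic Mirg went from 44.7 at 0 h to 84.96 at 96 h, while the fit to counts gave 1.40-fold.

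In the nuclear fraction none of the 3 RNAs passed the test at 96 h against 0 h. The paper holds it possible that this fraction still contained much cytoplasmic RNA. Meg3 was at 689, 590 and 744 TPM at 0 h and at 684, 835 and 787 TPM at 96 h, with a log2 change of 0.08. Rian was at 643, 559 and 724 TPM and then at 978, 656 and 747 TPM (-0.01). Mirg was at 91.0, 87.1 and 89.2 TPM and then at 79.5, 110 and 121 TPM (-0.11). The groups overlapped for all 3. Mean TPM went from 642 to 794 for Rian and from 89.1 to 103 for Mirg between 0 and 96 h. The log2 changes of both, fitted to counts, were negative. Between these times Meg3 was lower, at 193.95, 279 and 255 TPM at 36 h, as was Rian, at 274, 327 and 325 TPM, with no overlap with 0 h. The 36 h levels were not tested. The difference between the fractions in the change over time was -0.80 for Rian, -0.59 for Mirg and -0.54 for Meg3. None passed the adjusted test (Rian unadjusted p = 0.0037, adjusted p = 0.53), which 0 of 11817 genes passed in edgeR, 814 of them below an unadjusted p of 0.05, and 0 of the region's genes in DESeq2.

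**Figure D5:**
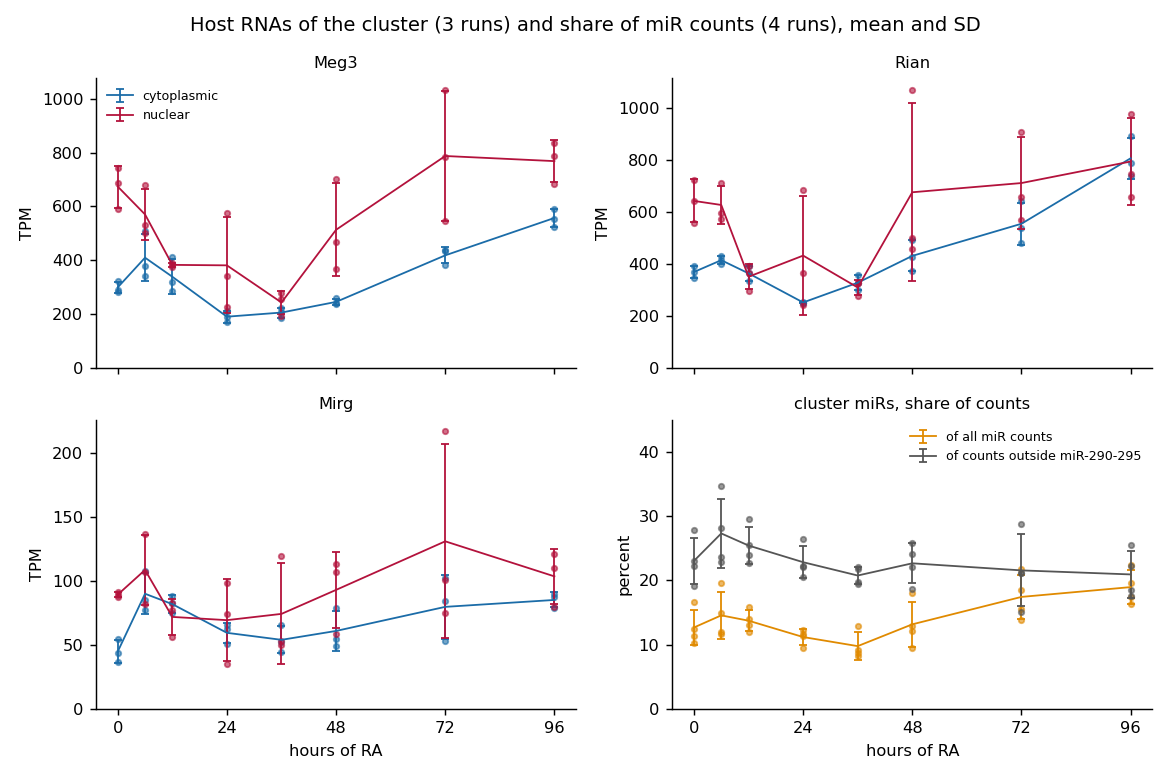
TPM of Meg3, Rian and Mirg (y axes) against hours of RA (x axes) in cytoplasmic and nuclear RNA of runs 5, 6 and 7, and the cluster's share of miR counts in percent in 4 runs (bottom right). Points are libraries, lines are means and bars are SD. Cytoplasmic Meg3 and Rian are lowest at 24 h and highest at 96 h, and the share is lowest at 36 h.

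The paternal genes were at other levels. Dlk1 (chr12:109452485-109463336), a membrane ligand related to Notch ligands, was at 0.11, 0.22 and 0.28 TPM in the cytoplasm at 0 h and at 79.8, 65.8 and 52.1 TPM at 96 h. The 0 h libraries held 7 counts of it in all and the 96 h libraries 2385, a depth-corrected ratio of 350 (95% interval 170 to 872, counting error only). The fitted log2 change was 8.29 ± 0.56 (adjusted p = 3.32e-16), and 8.85 in the nucleus. Dio3 (chr12:110279230-110281097), which inactivates thyroid hormone, was at 7.53, 9.98 and 8.56 TPM and then at 5.60, 3.00 and 5.07 TPM in the cytoplasm. It fell by 1.38 ± 0.50 log2 there (adjusted p = 0.0152) and by 1.79 in the nucleus (adjusted p = 0.00233), and was lower still at 48 h, at 0.86, 0.87 and 1.12 TPM. The calls were lost without run 6 in the cytoplasm (-1.08) and without run 7 in the nucleus (-1.50). In total RNA, given below, the change of Dio3 had the opposite sign.

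Rtl1, a coding gene derived from a retrotransposon and needed in the placenta, had 0, 0 and 1 counts in the cytoplasm at 0 h and 21, 23 and 17 at 96 h. In the nucleus it had 0, 0 and 2 and then 9, 30 and 4. These were below the limit for testing. In the cytoplasm 6 of the 7 tested genes of the region were called, against 61.2% of all genes (3 of 7 without run 6), and in the nucleus 3 of 7, against 61.7%. Between the fractions, over all times, 3 of 7 were called, against 31.1%. Those were Meg3, Mirg and Rian, higher in the nuclear fraction by 0.67, 0.50 and 0.38 log2, while Dlk1 (0.18) and Dio3 (0.04) were not called.

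Bulk RNA cannot tell fewer cells of a type from less RNA per cell. Markers of mESCs summed to 3286 to 3294 TPM in cytoplasmic RNA at 0 h and to 216.2 to 271 TPM at 96 h. All 7 tested of the 8 listed fell. Markers of extraembryonic endoderm (XEN) went from 13.8 to 18.9 TPM up to 2377 to 3508 TPM, with all 7 rising. Those of neuroectoderm went from 13.7 to 15.9 TPM up to 212 to 236 TPM, with all 4 tested of the 6 listed rising. A fibroblast list went from 0.74 to 1.38 TPM, with 1 of 5 genes at 0, up to 155 to 169 TPM. All 4 tested of the 6 listed rose. The part of cell composition in the results above was not tested.

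In single-end total RNA, with 2 libraries at 0 h and 2 at 96 h, Dlk1 was at 0.47 and 0.98 TPM and then at 8.52 and 42.1 TPM, and rose by 4.92 ± 0.70 log2 (adjusted p = 0.00694). It was 1 of 2 region genes called of 7 (background 29.7%), with Wars, a tRNA synthetase gene on the Dlk1 side of the region (1.39). Meg3 was at 2.77 and 11.2 TPM and then at 4.90 and 19.1 TPM, Rian at 66.7 and 105 and then at 179 and 162, and Mirg at 2.61 and 6.16 and then at 11.2 and 12.5. The fitted changes of 1.59-, 1.60- and 2.30-fold did not pass. In simulated data this total RNA test recovered 0% of 2-fold and 40% of 4-fold changes, so these RNAs are not shown to be unchanged. Dio3 was at 2.23 and 3.99 TPM and then at 5.00 and 6.17 TPM. Its change of 0.53 went the other way from the fall in the fractions and did not pass, nor did Rtl1 (0.07). These single-end levels cannot be set beside those of the fractions, which were mapped with other tools. In paired-end total RNA of replicate 3, with 1 library at each time, Meg3 was at 306 TPM at 0 h, 82.1 TPM at 24 h and 241 TPM at 48 h.

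XEN-like and ectoderm-like (ECT) cells were sorted at the end of the course on CD24 and PDGFRA, with 1 library each and no test. Their markers followed the sample names, with Pdgfra at 144.35 TPM in XEN and 48.8 TPM in ECT and Cd24a at 14.1 and 544 TPM, although the sort label of the XEN sample reads the other way. Rian was at 143.13 TPM in XEN and 267 TPM in ECT, Meg3 at 4.23 and 7.40, Mirg at 6.45 and 9.95, Dlk1 at 1.16 and 27.8, Dio3 at 0.63 and 13.8 and Rtl1 at 0.07 and 0.19. Each was higher in ECT, most of all Dlk1 and Dio3.

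Genes known to act on imprints or on miR processing were followed in cytoplasmic RNA. Of 17 imprint regulators listed, 12 were tested there, without Dnmt1, Trim28, Zfp445, Mef2a and Mef2c. Of the 12, 9 were called (75%, against 61.2% of all genes), with a median log2 change of -0.70, beside 0.02 for all genes. In total RNA all 17 were tested, and 4 rose and 5 fell (52.9% called, against 29.7% of all genes). The values that follow are of cytoplasmic RNA. Dnmt3l, Dnmt3a and Aff3 rose (1.78, 1.65 and 5.02). Zfp57, a zinc-finger protein that keeps imprints, fell by 1.66, and Uhrf1, Jarid2, Tet1, Tet2 and Dppa3 fell by 1.18, 1.40, 2.81, 3.31 and 7.57. Dnmt3b (-0.02) and Ezh2 (-0.12) did not pass. Of 10 genes of miR processing, 5 were called (50%, below the 61.2% of all genes), with a median of 0.03. Prkra, a Dicer partner, Dicer1 itself and Dgcr8, the partner of Drosha, rose (1.91, 1.02 and 0.31), and the Argonautes Ago2 and Ago1 fell by 0.67 and 0.53. Drosha (-0.03) and Xpo5 (-0.06) did not pass.

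The miR-433-3p mimic and inhibitor asked what follows when this 1 member is raised or blocked in mESCs. With the mimic, 0 of the 7 tested genes of the region were called by edgeR or DESeq2 against scrambled, with 0 below an unadjusted p of 0.05, where 0.147% of all 12257 genes were called. The log2 differences were -0.01 for Meg3, -0.09 for Rian, -0.43 for Mirg, -0.09 for Dlk1 and 0.69 for Dio3. These fits had no block. With the transfection batch as a block in edgeR, Dio3 had an unadjusted p of 0.0324 (log2 difference 0.54, adjusted p = 0.299). With the inhibitor 0 of 6 were called by either tool, with 0 below an unadjusted p of 0.05, and 0% of 13029 genes were called, 1426 of them below an unadjusted p of 0.05. The differences were 0.03 for Meg3, 0.14 for Rian, 0.15 for Mirg and 0.21 for Dlk1. Rtl1, which lies opposite miR-433, had no count in any mimic, inhibitor or scrambled library.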

How the data were processed

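Small RNA libraries were mapped and counted by the authors with miRDeep2 and Bowtie (1.0.0-1) on miRBase miRs. The deposited read counts per mature miR are estimated (expected) counts, since reads with several matches were split, and were rounded here, the highest over precursors being taken; whole counts had been planned for. For mRNA the authors deposited RSEM expected counts and TPM (total RNA: Bowtie2 2.2.6 and RSEM 1.2.28; others: STAR 2.6.1a and RSEM 1.3.1, Ensembl 93). Expected counts were rounded for tests, and TPM is printed as deposited.

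Tests were edgeR (4.0.16) quasi-likelihood fits in R (4.3.3) with TMM factors, 1 group per time point, fraction or reagent, and Benjamini-Hochberg adjustment over all miRs or genes with a mean count above 10 (20 for transfections), called at 0.05. DESeq2 (1.42.0), other scalings and filters, left-out runs and a run block were alternatives. The labels give the run number of each library, and the pairing of the small RNA libraries rests on these labels. Deviations from time point means had a median r of 0.63, 0.78, 0.24 and 0.88 within runs 3, 5, 6 and 7. Run 4 was counted with run 3 for these values, and single pairs of run 6 went down to -0.30. Between runs the median was -0.15, which subtracting the mean of the 4 libraries draws below 0, so it is no separate test. In the blocked fits run 4 was a block of its own. In simulated data with the libraries' own spread, the miR test recovered 0% of 2-fold and 44.5% of 4-fold changes, and 11% and 81% without run 7. The simulated libraries were drawn independently, without the likeness within runs, and fitted without a block. The figures are therefore of the unblocked test, and the blocked fit was not simulated.

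Named members were the 15 most counted, up to 5 rising and 5 falling past the test in all 4 runs, both arms of miR-433 and the 2 nearest the count limit on each side. The members and lists were chosen with earlier results of these data known. Cells of different replicates were differentiated separately, so p-values measure the spread between runs of 1 line. Intervals on counts cover counting error only.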

Additional observations from a re-analysis of the deposited data

Results flagged for a closer look

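Of 38 groups of 4 libraries (0 h and 96 h of the 19 named members), 11 had 1 library far from the other 3, by Dixon's test at 95%. Chance flags about 1 in 20 such groups. In 9 of the 11 the library was of run 7, 8 of them at 96 h, so that these groups share 1 library.

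At 96 h the library of run 7 was the highest, in CPM, for miR-127-3p (65249), miR-409-3p (70543), miR-541-5p (29364), miR-379-5p (46697), miR-370-3p (30615) and miR-381-3p (29931). It was the lowest for miR-434-3p (711) and miR-433-5p (11.4). At 0 h the library of run 7 was the lowest for miR-668-3p (44.0). At 0 h the library of run 3 was the highest for miR-673-5p (389) and the lowest for miR-433-5p (16.1).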

How the results depend on the processing

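The count of members called at 96 h was 6 with the 7 libraries of run 7 after 0 h left out (chosen after seeing the data), 1 with at least 10 counts in every library or with no low-count filter, and 1 to 6 with 1 run left out. With the replicate block (run) it was 19, and 13 with run 7 left out as well (chosen after seeing the data). Over any time point it was 15 with the 7 libraries left out, 10 by DESeq2, 3 without the filter, 16 with the block, 23 with both, 3 under total counts and 1 to 15 with 1 run left out. It was 1 at 6 h with the 7 libraries left out, and 11 at 24 h with the block. At 36 h it was 3 with the 7 libraries left out, 1 by DESeq2, 1 with the strict filter, 3 with the block, 4 with both and 0 to 1 with 1 run left out. At 48 h it was 7, 2 by DESeq2, 2 with its size factors, 0 without the filter, 22 with the block, 12 with both, 0 under total counts and 0 to 7 with 1 run left out. At 72 h it was 1 without the filter, 26 with the block, 13 with both, 2 with sums over precursors, 3 under total counts and 1 to 11 with 1 run left out. The lowest counts came without run 3 or run 5 and the highest without run 7. In the region's genes, 1 was called between fractions over time without the filter, 3 to 5 in cytoplasmic RNA with 1 run left out, and 1 to 2 in total RNA.

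The sign at 96 h turned, with 1 run left out, for miR-127-3p (-0.15 to 0.92), miR-409-3p (-0.51 to 2.41), miR-541-5p (-0.32 to 0.96), miR-379-5p (-0.10 to 1.52), miR-411-5p (-0.42 to 0.20), miR-434-3p (-0.14 to 0.16) and miR-494-3p (-0.34 to 0.23). With the block it turned for miR-409-3p (-0.048), miR-541-5p (-0.066) and miR-433-5p (-0.080). Under total counts it turned for miR-300-3p (0.22), miR-411-5p (0.52), miR-434-3p (0.72), miR-369-3p (0.31) and miR-494-3p (0.71). For miR-434-3p it also turned by DESeq2 (0.078), with its size factors (0.078), with the strict filter (0.13), without the filter (0.051) and with sums (0.16), and for miR-494-3p by DESeq2 (0.048), with its size factors (0.048), without the filter (0.030) and with sums (0.10).

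In nuclear RNA, leaving out 1 run gave -0.068 to 0.17 for Meg3, -0.061 to 0.084 for Rian (0.025 by DESeq2 and 0.025 with its size factors) and -0.20 to 0.040 for Mirg. Nuclear against cytoplasmic RNA gave -0.072 to 0.48 for Dlk1 and -0.080 to 0.075 for Dio3, and the change between fractions -0.55 to 2.00 for Dlk1 and -1.14 to 0.078 for Dio3. In total RNA, Meg3 was -0.41 to 1.85 and Rtl1 -0.39 to 0.51. For the mimic, Meg3 was -0.37 to 0.23, Rian -0.22 to 0.051 and Dlk1 -0.56 to 0.15, and 0.24 for Dlk1 with the batch as a block. For the inhibitor, Meg3 was -0.23 to 0.31, Mirg -0.023 to 0.26 and Dlk1 -0.36 to 0.58. The causes were not tested.

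With 4 libraries per time point the spread between runs sets the limit of the unblocked test. That test recovered no 2-fold change in simulated libraries with run 7, so members without a call are not shown to be unchanged. Members near the count limit rest on few reads.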
